A study of Mus musculus with 15 samples.

Results

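Immunoglobulin constant region genes and B-lineage genes were followed in the kidneys of 15 mice. The set held 10 genes of the 33058 in the deposited table: the heavy chain constant genes Ighm, Ighd, Igha, Ighg2b and Ighg2c, the kappa light chain constant gene Igkc, the joining chain gene Jchain, and the B-cell surface genes Cd79a, Cd79b and Ms4a1. They were chosen by name, with earlier results of these data known. A count of them beside the share of all genes is therefore a description. The value of a gene was the sum of FPKM (fragments counted per unit of transcript length and of library size, so a level per length) over the rows of the linear transcript table with that gene name and class code =, c, j or o. These codes say how an assembled transcript relates to an annotated transcript: the same, contained in it, sharing a splice junction, or overlapping it.

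The mice were males labelled C57BL/6 (C57BL/6J in the methods of the study), 5 at 3 months, 5 at 12 months and 5 at 24 months of age, for which the labels name no allele, transgene or treatment. Each library was made from the total RNA of a kidney sample, after removal of ribosomal RNA according to the labels. The 3-month mice are numbered 5 to 9, the 12-month mice 17 to 21 and the 24-month mice 31 to 35, and values for an age are given in that order. The aligned sequence behind each library, read from the ratio of the deposited coverage to FPKM, was 5.03 to 6.13 Gb at 3 months, 5.84 to 8.03 Gb at 12 months and 6.07 to 7.33 Gb at 24 months. Kidney genes were high in every library, with Slc34a1, the phosphate transporter of the proximal tubule, at 716 to 1155 FPKM and Umod, the uromodulin gene of the thick ascending limb, at 689 to 999 FPKM.

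B cells carry an antigen receptor made of membrane immunoglobulin with the signalling chains Cd79a and Cd79b, and most of them also carry Ms4a1, the CD20 antigen. Naive B cells make IgM and IgD from the same locus, and after class switching a cell uses a downstream constant gene such as Igha or an Ighg gene in place of Ighm. Plasma cells are their antibody-secreting descendants, in which immunoglobulin messenger RNA is very abundant and the B-cell surface genes are low. Jchain encodes the chain that joins IgM pentamers and IgA dimers, and the healthy kidney holds few cells of this lineage.

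The constant genes lie on chromosomes 12 and 6 of the mouse genome (GRCm38), and their transcripts are the sequences that carry the values below. Each stretch was read from the GENCODE M21 transcripts and is written 5′ to 3′ in the direction of transcription. The start of the Igkc coding sequence lies at chr6:70726435-70726554 on the plus strand, in its single exon, and stands for the most abundant member.
Igkc: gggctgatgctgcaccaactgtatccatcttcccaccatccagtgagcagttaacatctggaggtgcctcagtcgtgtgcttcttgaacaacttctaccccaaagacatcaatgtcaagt
Ighm transcripts end in either of 2 ways. The secreted form runs on in its last constant exon (chr12:113420870-113420988, minus strand), while the membrane form splices to separate membrane exons (chr12:113418829-113420988, minus strand). The 60 shared bases before the branch are in lower case, and the capitals mark the coding bases found in that form only, 59 in the secreted and 122 in the membrane form, without the stop codon.
Ighm secreted end: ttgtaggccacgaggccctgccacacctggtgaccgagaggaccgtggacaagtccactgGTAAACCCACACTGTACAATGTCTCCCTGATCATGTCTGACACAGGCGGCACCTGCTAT
Ighm membrane end: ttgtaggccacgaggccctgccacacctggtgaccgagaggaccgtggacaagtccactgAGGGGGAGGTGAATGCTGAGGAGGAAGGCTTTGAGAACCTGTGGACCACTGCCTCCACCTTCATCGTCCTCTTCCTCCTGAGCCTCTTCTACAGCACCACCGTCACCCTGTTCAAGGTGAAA
Ighg2b and Ighg2c were the most alike pair of the IgG genes, which bears on how their reads were split. Their coding sequences were 85.9% identical, against 75.7% to 77.7% for the other pairs of IgG genes, and their longest shared run was 78 bases. In the stretch around it (Ighg2b chr12:113306849-113306968 and Ighg2c chr12:113287849-113287968, both minus strand) the capitals mark the 4 bases of 120 that differ.
Ighg2b: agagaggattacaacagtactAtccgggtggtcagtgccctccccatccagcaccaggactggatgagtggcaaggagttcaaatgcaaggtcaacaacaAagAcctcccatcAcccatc
Ighg2c: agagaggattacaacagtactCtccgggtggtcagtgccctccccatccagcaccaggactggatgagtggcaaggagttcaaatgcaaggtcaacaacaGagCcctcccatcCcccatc

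Ighm, Igkc, Igha and Jchain passed the limits used below for a rise from 3 to 24 months. Only Ighm had an adjusted p under 0.05 in limma's test, and this adjusted p rose above 0.05 without some single mice. Calls on Igha and Jchain themselves depended on single mice. Mean Ighm at 24 months was 7.20 times that at 3 months and mean Igkc 3.87 times. Mouse 9, the highest of the young mice for 9 of the 10 genes, weighed on these ratios, which were 11.01 and 6.86 without it. The surface genes Cd79a, Cd79b and Ms4a1 never exceeded 1.97 FPKM, with means at 24 months 3.66 to 6.28 times those at 3 months, and 4.998 to 10.4 times without mouse 9. In whole-tissue RNA, more cells of a type cannot be told apart from more RNA in each of those cells.

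Ighm, the constant gene of IgM, stood at 3.59, 3.05, 1.22, 1.61 and 8.62 FPKM at 3 months. It stood at 104, 17.1, 18.6, 27.7 and 54.4 FPKM at 12 months. It stood at 46.1, 18.3, 12.4, 24.3 and 29.2 FPKM at 24 months. Every 12-month and every 24-month mouse lay above every 3-month mouse, and the 12- and 24-month values overlapped. The means ± SD (n = 5 each) were 3.62 ± 2.96, 44.3 ± 36.4 and 26.1 ± 12.9 FPKM.

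Igkc, the constant gene of the kappa light chain used by most mouse antibodies, had the highest level of the set at every age. At 3 months it was 25.7, 25.5, 8.57, 14.1 and 89.9 FPKM. At 12 months it was 351, 50.5, 176, 238 and 361 FPKM. At 24 months it was 187, 82.9, 152, 111 and 99.7 FPKM. The mean was 32.7 ± 32.8, 235 ± 129 and 127 ± 42.3 FPKM (SD, n = 5). The ages overlapped through mouse 9, whose Igkc exceeded that of 1 mouse at each older age.

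Igha, the constant gene of IgA, the main antibody of mucosal surfaces, was the highest heavy chain gene in young kidney. Its levels were 13.2, 4.85, 4.32, 5.96 and 28.6 FPKM at 3 months, 31.3, 6.29, 28.0, 47.3 and 27.3 FPKM at 12 months, and 24.1, 21.98, 27.3, 11.2 and 38.6 FPKM at 24 months. Mouse 9 again stood above the rest of its age, and its Igha exceeded that of 4 of the 5 24-month mice.

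Jchain was 1.99, 2.27, 1.19, 1.07 and 2.98 FPKM at 3 months. It was 17.6, 1.77, 2.34, 4.41 and 9.11 FPKM at 12 months, and 11.2, 3.597, 3.51, 4.01 and 4.47 FPKM at 24 months. All 24-month mice lay above all 3-month mice, whereas mice 18 and 19 at 12 months lay within the young range.

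The IgG genes were lower and more irregular. Ighg2b was 4.52, 0.980, 0.326, 1.06 and 8.09 FPKM at 3 months, 7.37, 2.68, 7.86, 4.08 and 7.40 FPKM at 12 months, and 14.8, 1.92, 7.93, 6.06 and 6.71 FPKM at 24 months. Ighg2c was 2.36, 3.36, 1.07, 2.13 and 8.58 FPKM at 3 months, 7.74, 6.28, 7.07, 6.35 and 17.3 FPKM at 12 months, and 22.4, 3.85, 3.14, 4.76 and 5.96 FPKM at 24 months. Mouse 31 had the highest level of both genes among the 15 mice, and the ages overlapped for both. The longest run shared by the coding sequences of the 2 genes is 78 bases, and the methods of the study give reads longer than that. Sequence outside the coding regions and the alignment of single reads were not compared. How far shared sequence moved the values was not tested.

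Ighd and the surface genes were near the detection limit. Ighd, the constant gene of IgD on naive B cells, ranged over 0.0332 to 0.308 FPKM at 3 months, 0.345 to 2.25 FPKM at 12 months and 0.165 to 0.917 FPKM at 24 months, so that only the 12-month mice were clear of the young range. Cd79a was 0.0508, 0.0371, 0.0508, 0.0618 and 0.215 FPKM at 3 months, 0.708, 0.641, 0.310, 0.568 and 1.24 FPKM at 12 months, and 0.427, 0.222, 0.677, 0.511 and 0.770 FPKM at 24 months. Every older mouse of both ages exceeded every young mouse for Cd79a. Cd79b ranged over 0.0210 to 0.496, 0.459 to 1.97 and 0.469 to 1.26 FPKM at the 3 ages, and Ms4a1 over 0 to 0.108, 0.0449 to 0.802 and 0.0983 to 0.337 FPKM. The aligned sequence behind these values was small, from 0 to 17.3 kb in a library for Ms4a1 and from 0.302 to 12.98 kb for Cd79a, against 49.3 to 2797 kb for Igkc. Ms4a1 at 0 in mouse 5 is therefore read as not detected at this depth.

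**Figure D1:**
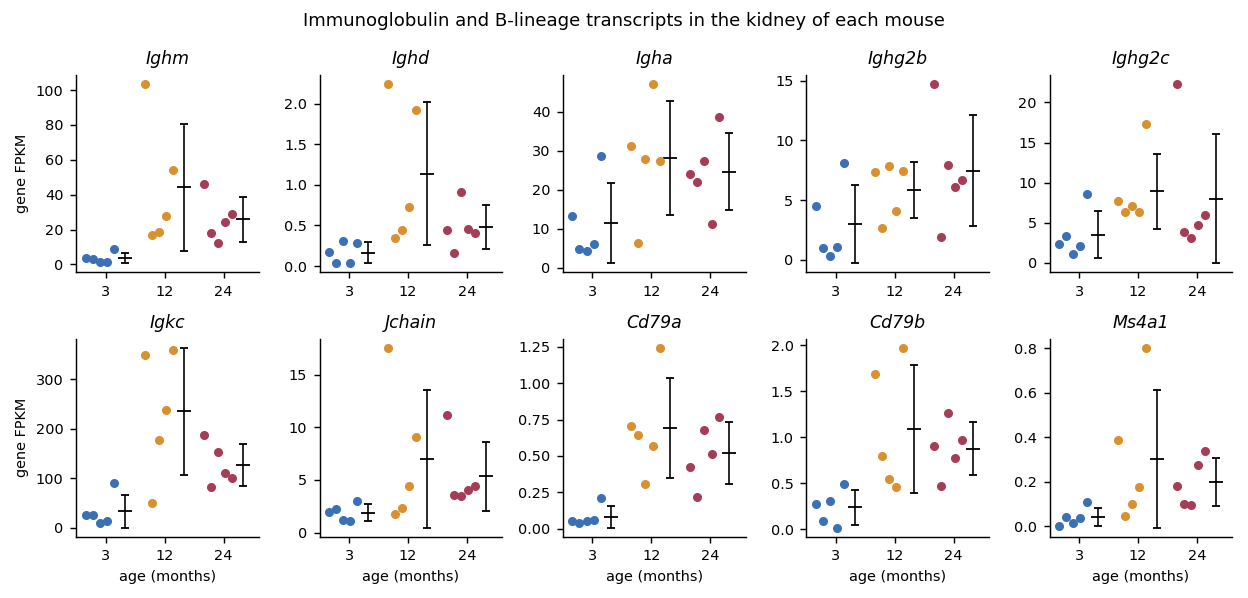
Gene FPKM (linear axes, a scale of its own in each panel) of the 10 genes in each of the 15 mice, grouped by age in months, with the mean and SD of each age beside the points (n = 5). Mouse 9 is the highest 3-month point in 9 of the 10 panels and its Ighg2b, 8.09 FPKM, lies above every 12-month mouse, and the highest 12-month Ighm and Igkc values, 104 and 361 FPKM, come from mice 17 and 21.

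The first question was whether kidneys of 24-month mice differed from those of 3-month mice. With limma on log2(FPKM + 1) over the 31755 genes above 0 in at least 1 of the 10 mice, calls needed both a fold change beyond 1 on the log2 scale, up or down, and a p under 0.05 before adjustment. The p-values printed for limma are adjusted over all genes tested. Of the 10 genes, 4 were called higher at 24 months, where 0.258% of all genes tested were called higher and 0.523% were called in either direction. None was called lower. Ighm rose by a log2 fold change of 2.63 ± 0.44 (SE, adjusted p = 0.0306). It was the only member with an adjusted p under 0.05, a limit that 1.22% of all genes passed. Igkc rose by 2.31 ± 0.53 (adjusted p = 0.0744), Igha by 1.28 ± 0.50 (adjusted p = 0.264) and Jchain by 1.06 ± 0.30 (adjusted p = 0.130). Ighg2b differed by 1.27 ± 0.60 (adjusted p = 0.361) and Ighg2c by 0.87 ± 0.53 (adjusted p = 0.496), and both missed the limit on p, within the spread of the mice. The median log2 fold change was 0.97 over the 10 genes and 0.02 over all genes tested.

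The low members were held back by the pseudocount. On the log2(FPKM + 1) scale Cd79a differed by 0.48 ± 0.10 (adjusted p = 0.0521), Cd79b by 0.60 ± 0.14 (adjusted p = 0.0736), Ms4a1 by 0.20 ± 0.06 (adjusted p = 0.144) and Ighd by 0.33 ± 0.13 (adjusted p = 0.257). All 4 passed the limit on p and stayed under the fold limit. At a pseudocount of 0.1 the same 4 genes differed by 1.76, 1.68, 1.05 and 1.15 and were called, which made 8 of 10 called higher against 2.49% of all genes. An unadjusted p under 0.05 with a higher level at 24 months was reached by 8 of the 10 genes and by 11.4% of all genes. In 3 of the 10, Ighm, Jchain and Cd79a, every 24-month mouse lay above every 3-month mouse, as for 3.82% of all genes, and in none did every 24-month mouse lie below, as for 0.91%.

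The calls on Igha and Jchain depended on single mice. Without mouse 7 or mouse 8 at 3 months, or without mouse 31 at 24 months, only 2 of the 10 genes were called. Igha then missed the limit on p, at log2 fold changes of 1.06, 1.16 and 1.27, and Jchain fell under the fold limit at 0.97, 0.95 and 0.79. Without mouse 6, 33 or 35, Igha alone lost its call, at 1.10, 1.22 and 1.10. Without mouse 9, which stood apart at 3 months, 6 were called, with Ighg2b at 1.67 and Ighg2c at 1.20. Ighg2b was also called without mouse 5 (1.49) or mouse 32 (1.61). Igkc and Ighm kept their call whichever mouse was left out, at 1.96 to 2.77 and 2.39 to 2.94. The adjusted p of Ighm in limma's test did not stay under 0.05 throughout. It lay between 0.0351 (without mouse 9) and 0.0681 (without mouse 8), and was 0.0923 with rows of class code = only.

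The second question was how far the difference was present at 12 months. This comparison used the same 3-month mice as the first, so the 2 are not independent. Of the 10 genes, 4 were called higher at 12 months, against 0.278% of all genes tested, and 0.499% were called in either direction. Ighm rose by 3.16 ± 0.55 (adjusted p = 0.0571), Igkc by 2.97 ± 0.68 (adjusted p = 0.101), Ighg2c by 1.25 ± 0.41 (adjusted p = 0.208) and Jchain by 1.15 ± 0.49 (adjusted p = 0.333). In limma's test no member reached an adjusted p under 0.05, as 0.25% of all genes did, while 7 of 10 had an unadjusted p under 0.05 and a higher level, as did 11.4% of all genes. Igha differed by 1.33 ± 0.60 (adjusted p = 0.352) and Ighg2b by 1.08 ± 0.53 (adjusted p = 0.391), past the fold limit without passing the limit on p.

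Of the low members, Cd79a differed at 12 months by 0.63 ± 0.13 (adjusted p = 0.0782), Cd79b by 0.71 ± 0.22 (adjusted p = 0.188), Ighd by 0.79 ± 0.25 (adjusted p = 0.203) and Ms4a1 by 0.29 ± 0.13 (adjusted p = 0.351). All but Ms4a1 passed the limit on p. At a pseudocount of 0.1, 9 of the 10 were called higher against 2.12% of all genes, Ighg2b being the exception at 1.60 (adjusted p = 0.367). Ighm, Ighd and Cd79a lay above the young range in all 5 mice, as did 3.45% of all genes, and none lay below it in all 5, as did 0.667%. The median log2 fold change was 1.11 over the 10 genes and 0.02 over all genes tested. Jchain lost its call without mouse 5, 6, 7, 8, 17, 20 or 21 in turn, its log2 fold change then lying between 0.75 and 1.20. Without mouse 9 or mouse 18 the count was 6 of 10, with Igha at 1.73 and 1.78 and Ighg2b at 1.48 and 1.29. Without mouse 5, Ighg2b was called at 1.30.

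Between 12 and 24 months none of the 10 genes was called, against 0.17% of all genes called in either direction and 0.0651% called higher. None reached an adjusted p under 0.05 in limma's test, as 0.0031% of all genes did. None was higher with an unadjusted p under 0.05, as 3.07% of all genes were, or was called higher at a pseudocount of 0.1, as 0.52% were. The ranges of the 2 ages overlapped for all 10, whereas 0.493% of all genes lay wholly higher and 0.573% wholly lower at 24 months. Of the 10, 9 had a lower estimate at 24 months. Igkc differed by -0.67 ± 0.51, Ighm by -0.53 ± 0.52 and Ighd by -0.45 ± 0.27 (adjusted p = 0.820 each), all within the spread of the mice. Ighg2b differed by 0.19 ± 0.43 (adjusted p = 0.921). Leaving out mouse 18, the 12-month mouse with the lowest level of 8 of the 10 genes, brought Igkc to -1.15 and made it the only call.

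**Figure D2:**
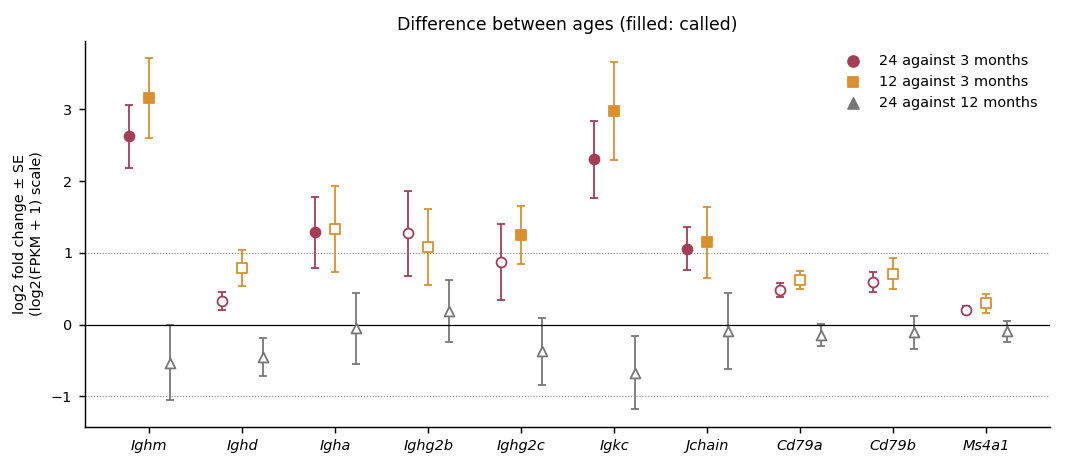
Log2 fold change of each gene on the log2(FPKM + 1) scale with its SE (limma, 5 mice an age) for the 3 comparisons. Filled symbols were called, dotted lines mark the fold limit of 1, and the 24 against 12 months values lie between -0.67 and 0.19.

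Heavy chain class make-up was given as the share of each constant gene in the summed FPKM of Ighm, Ighd, Igha, Ighg1, Ighg2b, Ighg2c, Ighg3 and Ighe, and carries no test. The summed FPKM was 23.2 ± 21.8, 92.2 ± 46.2 and 72.5 ± 30.8 at 3, 12 and 24 months (SD, n = 5). Igha was the leading class in all 5 young mice, at 54.7%, 38.2%, 58.0%, 53.6% and 47.2%. At 12 months its share was 19.9%, 17.99%, 41.3%, 53.3% and 24.4%, and at 24 months 20.8%, 46.7%, 50.03%, 21.98% and 41.0%. Ighm led in 3 of 5 mice at 12 months and in 2 of 5 at 24 months, and Igha in the rest.

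The Ighm share was 14.9%, 24.0%, 16.4%, 14.5% and 14.2% at 3 months. It was 65.9%, 48.8%, 27.4%, 31.2% and 48.6% at 12 months, above every young mouse, and 39.8%, 38.9%, 22.7%, 47.9% and 30.97% at 24 months, where mouse 33 fell within the young range. The IgG genes together made up 21.5% to 38.1% at 3 months, 12.8% to 32.2% at 12 months and 14.0% to 39.0% at 24 months. Their medians were 31.7%, 25.2% and 27.5%, and the ranges of the 3 ages overlapped. The Ighg1 share of the same heavy chain sum had a median of 1.03% at 3 months and 5.94% at 24 months. Ighe, the constant gene of IgE, stood at 0 in every young mouse and at most at 0.126% in an older mouse, and Ighd never exceeded 4.14%.

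On the light chain side, Igkc held 95.6% to 99.5% of the summed FPKM of Igkc and the lambda genes Iglc1 to Iglc4 in every mouse. The lambda share had medians of 2.05%, 1.55% and 1.67% at the 3 ages, and its highest value at 24 months was 4.37%, in mouse 35. The summed light chain FPKM exceeded the summed heavy chain FPKM in all 15 mice, by a ratio of 1.11 to 3.28.

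**Figure D3:**
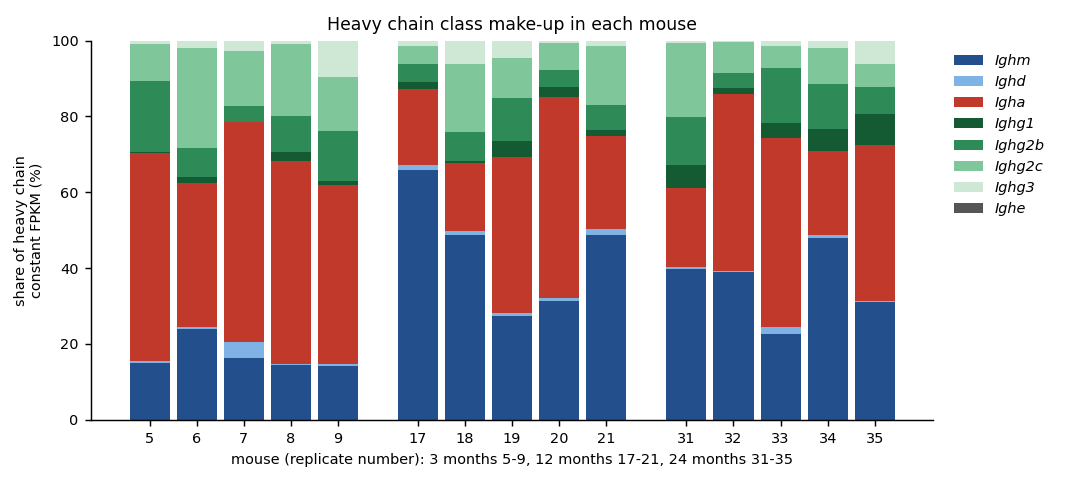
Share of each of 8 heavy chain constant genes in their summed FPKM (percent, stacked from 0 to 100) in each mouse, mice 5 to 9 at 3 months, 17 to 21 at 12 months and 31 to 35 at 24 months. The Ighm segment is 14.2% to 24.0% high in the young mice and 22.7% to 65.9% high in the older ones.

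These shares depended on how transcripts were assembled. Of the 7 Ighm rows, 5 were assembled and began upstream of the annotated start of the constant gene, and they held a median of 76.9%, 69.1% and 68.1% of the Ighm FPKM at the 3 ages. Of the 5 Igkc rows, the annotated row held a median of only 4.13%, 1.91% and 3.40%, and the others were assembled transcripts that ran from upstream into the Igkc exon. A rearranged immunoglobulin gene joins a variable segment to the constant region, so its messenger RNA has no complete counterpart in the reference annotation. With annotated rows alone, the median Ighm share was 3.69%, 24.5% and 17.1%, and Igkc lost its call in both comparisons with 3 months, with a log2 fold change of 0.80 at 24 months and 1.005 at 12 months, where it missed the limit on p. Another 2 assembled rows that end in the Igkc exon carry the name Gm43291 and were not counted. They held 0 to 190 FPKM in a mouse, and adding them left the number of members called at 4, 4 and 0.

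The secreted and membrane ends printed above were compared through the 2 annotated Ighm rows. At 3 months the secreted row stood at 0 in mice 5, 6 and 8 and the membrane row in mouse 7, so no share is read there. In the older mice where either row was above 0, 4 at 12 months and 5 at 24 months, the secreted row held 49.0% to 76.2% and 48.6% to 78.0% of the pair. Over all Ighm rows, those that reach the membrane exons held a median of 77.0%, 66.4% and 61.9% of the FPKM at the 3 ages, with ranges that overlapped. For Igha the secreted row held at least 89.9% of the pair in every mouse, for Ighg2c at least 96.9% and for Ighg2b at least 83.0%. For Ighg1 it held 0% in mouse 5 and at least 85.6% in the other mice where either row was above 0. Ighd went the other way, with the secreted row at most at 29.7%. Row levels within a gene are estimates of the assembler from shared exons, and their error was not given.

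Mouse-to-mouse spread was large. The coefficient of variation (SD over mean) of the 10 genes had a median of 0.868 at 3 months, 0.591 at 12 months and 0.517 at 24 months. Over genes with a mean FPKM of at least 1 the median was 0.209, 0.187 and 0.187. At 3 months 9 of the 10 genes exceeded the 90th percentile of those genes, at 12 months 8 and at 24 months 5. Of these, 4, 3 and 2 belonged to Ighd, Cd79a, Cd79b and Ms4a1, whose means over the 15 mice lie under 1 FPKM, so they were set beside more abundant genes. Jchain was the least variable at 3 months (0.416) and Ighg2b the most (1.10), with a 24.9-fold difference between the highest and lowest young mouse. At 24 months Cd79b was the least variable (0.330) and Ighg2c the most, through mouse 31.

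The spread followed particular mice. Mouse 9 had the highest level of 9 of the 10 genes among the young mice, mouse 18 the lowest of 8 at 12 months, and mice 17 and 21 each stood in the top 3 of all 15 mice for 8 genes. At 24 months mouse 31 was highest for 5 genes and mouse 32 lowest for 5. Markers of other cells were compared in the same libraries. The summed FPKM of 9 T-cell markers was 2.17 to 5.44, 4.43 to 7.22 and 3.16 to 9.12 at the 3 ages, with no T-cell marker called at 24 or 12 months at a pseudocount of 1. At a pseudocount of 0.1, Cd3e, a chain of the T-cell receptor complex, was called higher at both ages (1.15 at 24 and 1.19 at 12 months) and Cd2 at 24 months (1.07). Mean Cd3e was 0.602, 1.36 and 1.47 FPKM at the 3 ages. The 5 genes of lymph node stroma summed to 2.63 to 3.66, 2.02 to 3.87 and 3.29 to 3.88 FPKM. Madcam1 was at 0 in 13 mice and Fcna in 5, whereas Glycam1, Ccl21a and Cr2 were above 0 in all 15 mice. The 5 red cell genes summed to 486 to 1390 FPKM at 3 months, 600.3 to 1068 at 12 months and 260.2 to 1033 at 24 months. Of 6 macrophage markers C1qa alone was called, higher at 12 months, and of 9 kidney genes Aqp2 alone, lower at 12 months. No marker of NK cells, neutrophils, fat or adrenal cortex was called at 24 or 12 months, and Cyp11b1, which defines adrenal cortex, was at 0 in 14 mice. Of the other adrenal markers, Cyp21a1 was at 0 in 9 mice and Cyp11a1 in 7, none of the latter at 24 months. Star, which carries cholesterol into mitochondria for steroid synthesis, was above 0 in all 15 mice, at 1.05 to 1.75, 1.71 to 2.33 and 1.87 to 3.24 FPKM, with every 24-month mouse above every young mouse (log2 fold change 0.52, adjusted p = 0.0984). The part of blood, T cells or attached tissue in the immunoglobulin values was not tested.

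Relations between members were computed after centring each age on its own mean, over 15 mice and 6 pairs, with p from 100000 permutations of mice within ages and adjustment over the 6 pairs. Igkc and Jchain gave r = 0.73 (permutation p = 0.00119, adjusted 0.00357) and rho = 0.83 (p = 0.000940, adjusted 0.00564). Without mice 9 and 18, those farthest from the median of Igkc, r was 0.70 (permutation p adjusted 0.0107) and rho 0.66 (adjusted 0.0869). Igkc and Ighm gave r = 0.77 (permutation p = 0.00232, adjusted 0.00464) and rho = 0.74 (p = 0.00492, adjusted 0.0123), and without the same mice r was 0.66 (permutation p adjusted 0.0338) and rho 0.66 (adjusted 0.0869).

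Igkc and Igha gave r = 0.79 (permutation p = 0.0103, adjusted 0.0155) and rho = 0.64 (p = 0.0242, adjusted 0.0291). Without mice 9 and 18 r fell to 0.25 (permutation p = 0.483), so this relation was not seen in the remaining mice. Igkc and Ms4a1 gave r = 0.52 (permutation p = 0.0831, adjusted 0.0831) and rho = 0.71 (p = 0.00822, adjusted 0.0123), with r = 0.34 after leaving out the same mice. Cd79a and Cd79b, the chains of a single signalling dimer, gave r = 0.80 (permutation p = 0.000410, adjusted 0.00246) and rho = 0.75 (p = 0.00636, adjusted 0.0123), and without mice 19 and 21 r was 0.66 (permutation p adjusted 0.0107) and rho 0.67 (adjusted 0.0869). Cd79a and Ms4a1 gave r = 0.76 (permutation p = 0.0131, adjusted 0.0157) and rho = 0.51 (p = 0.0843, adjusted 0.0843). Without mice 19 and 21 the r of Cd79a and Ms4a1 was 0.48 (permutation p = 0.116, adjusted 0.174). Leaving them out also left fewer mice and a narrower range of Cd79a. With 5 mice an age, no coefficient was computed within a single age.

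**Figure D4:**
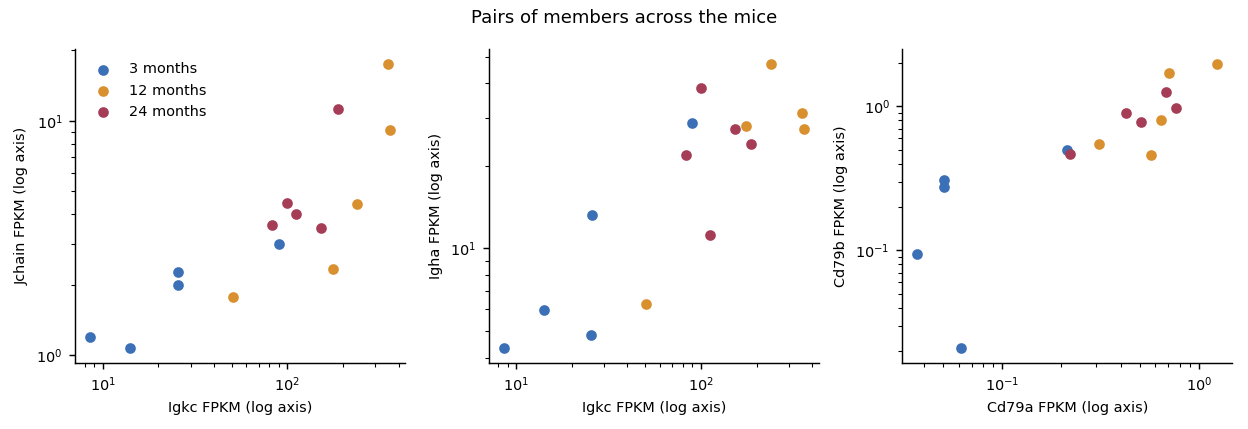
FPKM of Jchain and Igha against Igkc, and of Cd79b against Cd79a, on log axes, with 1 point for each of the 15 mice coloured by age. Igkc and Jchain fall along a band, and the lowest Igha among the older mice, 6.29 FPKM, belongs to mouse 18, which also has the lowest Igkc of its age.

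The variable segment genes, which encode the antigen-binding ends of the chains, were counted beside the constant genes. Of 116 Ighv genes listed, 49, 35, 29, 38 and 65 were above 0 FPKM in the 3-month mice, 84, 51, 74, 71 and 75 in the 12-month mice, and 83, 73, 74, 71 and 77 in the 24-month mice. All 24-month mice exceeded all 3-month mice. Counts of all genes above 0 separated likewise, 23354 to 24198 at 3 months and 24747 to 25435 at 24 months. Aligned sequence was 5.03 to 6.13 Gb and 6.07 to 7.33 Gb at these ages, and the part of depth in the counts was not tested. Of 99 Igkv genes, 29 to 55, 49 to 67 and 63 to 74 were above 0. The summed FPKM of the segments moved with these counts, from 5.76 to 28.7 for Ighv at 3 months to 33.5 to 71.7 at 24 months, and a segment is more easily detected where its total is high.

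A single segment could take a large share. In mouse 17, Igkv4-55 held 42.2% of the Igkv FPKM, and in mouse 31 Igkv19-93 held 37.3%, whereas the largest share in a young mouse was 15.8%. Among heavy chains, Ighv8-8 held 34.99% in mouse 6, where the summed Ighv FPKM was only 12.5. The leading Ighv gene was a different one in most mice, with Ighv1-53 leading in 3 and Ighv1-26 in 2, and the leading Igkv gene was Igkv4-55 in 4 and Igkv3-2 in 3 of the 15 mice. Variable segments are near copies of each other, so reads could be assigned to a wrong segment.

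**Figure D5:**
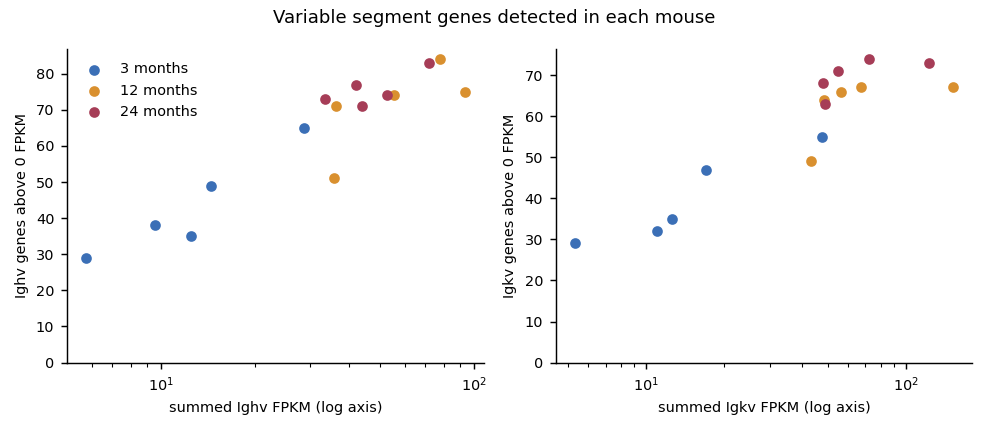
Number of Ighv (left) and Igkv (right) genes above 0 FPKM against their summed FPKM (log axis), with 1 point for each of the 15 mice coloured by age. 4 of the 5 young mice lie at the lower left, mouse 9 with 65 Ighv and 55 Igkv genes lies above the 51 and 49 of mouse 18 at 12 months, and the 24-month mice have 71 to 83 Ighv and 63 to 74 Igkv genes above 0.

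Other genes of the lineage were read from listed groups. Of 7 further immunoglobulin constant genes, 1 was called higher at 24 months and 3 at 12 months, against 0.258% and 0.278% of all genes, and none was called lower. Ighg1 ranged over 0 to 0.624 FPKM at 3 months and 0.708 to 7.66 at 24 months, and rose by 1.83 ± 0.42 (adjusted p = 0.0744) at 24 months and by 1.20 ± 0.32 (adjusted p = 0.137) at 12 months. The lambda genes Iglc2 and Iglc3 rose at 12 months by 1.16 (adjusted p = 0.122) and 1.25 (adjusted p = 0.315). Their differences at 24 months, 0.96 (adjusted p = 0.0843) and 0.80 (adjusted p = 0.0432), stayed under the fold limit. Ighg3 differed by 0.35 at 24 months (adjusted p = 0.806).

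Of 20 further B-cell genes none was called at either age at a pseudocount of 1, with a median log2 fold change of 0.23 at 24 months and 0.28 at 12 months. At a pseudocount of 0.1, 6 were called higher at 24 months, against 2.49% of all genes, and 12 at 12 months, against 2.12%. An unadjusted p under 0.05 with a higher level was reached by 14 and 12 of them, and by 11.4% of all genes at either age. The 3 most abundant genes of the group were Blnk, Cd72 and Ebf1, at 6.04 to 8.85, 2.58 to 5.58 and 4.17 to 5.16 FPKM at 24 months. They had been at 4.98 to 8.34, 3.33 to 5.33 and 2.48 to 3.93 FPKM at 3 months, and Ebf1, an early B-lineage transcription factor also used by stromal cells, differed by 0.39 ± 0.10 (adjusted p = 0.112).

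Of 14 plasma cell genes none was called at either age at a pseudocount of 1. At a pseudocount of 0.1, 2 were called higher at 24 months, against 2.49% of all genes, and 3 at 12 months, against 2.12%. Sdc1, the syndecan of plasma cells and epithelia, was one of them at both ages, and at a pseudocount of 1 it differed by 0.89 (adjusted p = 0.0712) and 0.87 (adjusted p = 0.0934). It stood at 0.828 to 2.87 FPKM at 3 months, 3.41 to 4.31 at 12 months and 3.40 to 4.83 at 24 months, so every older mouse was above every young mouse. Irf4, a transcription factor of plasma cells and activated lymphocytes, was another at both ages, with means of 0.308, 0.862 and 0.752 FPKM. Tnfrsf13b, a receptor for the survival factors BAFF and APRIL, was the other at 12 months, with means of 0.178, 0.566 and 0.430 FPKM. Creld2, a protein of the endoplasmic reticulum, had an adjusted p of 0.0343 at 24 months with a log2 fold change of -0.92, and every 24-month mouse was below every young mouse. At a pseudocount of 0.1 Creld2 was the 1 gene of the list called lower at 24 months, at -1.05. Of the 31755 genes tested, 256 were called lower at that setting. The 3 most abundant, Xbp1, Txndc5 and Ell2, are expressed in many secretory cells. Xbp1, a transcription factor of the unfolded protein response, was 18.4 to 30.8 FPKM at 3 months and 9.24 to 17.2 FPKM at 24 months, a log2 fold change of -0.83 ± 0.19 (adjusted p = 0.0762). Txndc5 and Ell2 differed by -0.05 (adjusted p = 0.961) and -0.12 (adjusted p = 0.815). The defining marker Tnfrsf17 never exceeded 0.199 FPKM and Mzb1 never exceeded 0.375 FPKM. At 24 months Tnfrsf17 differed by -0.04 (adjusted p = 0.789) and Mzb1 by 0.03 (adjusted p = 0.850). Derl3, listed with them and Jchain as a plasma cell marker, differed by -0.31 (adjusted p = 0.422). At 12 months Tnfrsf17, Mzb1 and Derl3 differed by 0.01 (adjusted p = 0.970), 0.18 (adjusted p = 0.319) and -0.10 (adjusted p = 0.775).

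Of 14 genes for B-cell survival and homing signals none was called at 24 or 12 months at a pseudocount of 1. Cxcl13, the chemokine that draws B cells into follicles, was at 0.0517 to 0.362 FPKM at 3 months, 0.519 to 1.58 at 12 months and 0.564 to 0.943 at 24 months, with every older mouse above every young mouse. It differed by 0.51 (adjusted p = 0.0315) at 24 months and 0.56 (adjusted p = 0.125) at 12 months, under the fold limit, and at a pseudocount of 0.1 it was the single gene of the group called, by 1.47 and 1.55. The most abundant were Cxcl12, Ccl19 and Ccl28, of which Cxcl12 differed by 0.82 ± 0.68 (adjusted p = 0.645) at 24 months. Of 9 genes for antibody transport and Fc receptors none was called. Pigr, the receptor that carries IgA and IgM across epithelia, was 34.9 to 84.0 FPKM at 3 months and 50.5 to 153 FPKM at 24 months, and differed by 0.78 ± 0.34 (adjusted p = 0.329). Fcgrt, the neonatal Fc receptor, differed by 0.28 ± 0.11 (adjusted p = 0.272) and Fcgr2b by -0.11 ± 0.23 (adjusted p = 0.846).

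The genes whose level followed Igkc and Cd79a most closely were sought among 15709 genes with a mean FPKM of at least 0.5, leaving out members and immunoglobulin segments. For Igkc they were Pdgfrb and Pou2af1 (rho = 0.925 each over the 15 mice), Eef1b2 (0.92), Ldb2 (0.91) and Blvrb (0.90). For Cd79a they were Tbc1d31 (0.92), Gm15846 (0.90), Cd37 (0.90), Bora (0.89) and Irf5 (0.89). Pou2af1 is a B-cell coactivator of octamer factors, Cd37 a tetraspanin of mature B cells and Irf5 an interferon regulatory factor. These coefficients are a description over mice that share the age contrast. No circular RNA of the 11929 listed had a member as its host gene.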

How the data were processed

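Kidney RNA of 15 mice was measured by RNA-seq. The authors assembled transcripts on GRCm38 with StringTie and deposited the FPKM of each linear transcript and its mean coverage signal (the depth of aligned reads over its length). The aligner is given differently in the sources used here (TopHat2 in the processing notes, Hisat2 in the methods), as is the library type (ribosomal RNA removal in the labels, oligo(dT) selection in the methods). FPKM are not counts, so no count test was run. Coverage served only for depth.

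The members and gene lists were chosen with earlier results of these data known. Ages were taken from the age label, since the titles of all samples begin alike. All genes above 0 in at least 1 mouse compared were fitted with limma 3.58.1 (R 4.3.3, eBayes with trend) on log2(FPKM + 1), with the 10 mice of the 2 ages only and Benjamini-Hochberg adjustment over all genes. On simulated data, 96.5% of 200 planted log2 changes of 1.5 were recovered for 24 against 3 months, and 61 unchanged genes were called. Changes were planted only in genes with a mean log2(FPKM + 1) above 2. The rate therefore does not cover Ighd, Cd79a, Cd79b or Ms4a1. Nothing in the labels says more of the replicates than that they are separate samples, and p-values measure the spread between them. Named besides the members were, in each list, the genes called in any comparison and the 3 of highest mean FPKM, and for Igkc and Cd79a the 5 genes of highest rho. Tnfrsf17, Mzb1, Derl3, Madcam1, Cyp11b1, Star, Cd3e, Cd2, Sdc1, Irf4, Tnfrsf13b, Creld2 and Cxcl13 were added after their values were seen. The same holds for Fcna, Glycam1, Ccl21a, Cr2, Cyp11a1 and Cyp21a1. Alternatives were a pseudocount of 0.1, a filter at a mean FPKM of 0.1, TPM (FPKM over its library sum), a joint fit, class code = only, adjusted p alone, and each mouse left out. Adding the Gm43291 rows to Igkc and leaving mouse 9 out of the ratios of means were chosen after seeing the data. Coordinates of 17 of 19 annotated member transcripts equalled those of GENCODE M21. Identity of coding sequences came from global alignments (Biopython 1.88).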

Additional observations from a re-analysis of the deposited data

Results flagged for a closer look

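Within each age, 54 groups of 5 values (members' FPKM, class shares and segment counts) were searched for a mouse that stood apart by Dixon's ratio, and 10 exceeded the critical value of 0.71. Chance flags about 1 in 20 groups of normally distributed values, which FPKM, shares and counts need not be. The groups are also not independent, since they come from the same mice. Mouse 9 at 3 months stood apart for Igkc at 89.9 FPKM, against 25.7 FPKM in the nearest mouse, and for Cd79a at 0.215 FPKM, against 0.0618 FPKM. Mouse 31 at 24 months stood apart for Ighg2c at 22.4 FPKM (nearest 5.96) and for Jchain at 11.2 FPKM (nearest 4.47). Mouse 21 at 12 months had 17.3 FPKM of Ighg2c (nearest 7.74). Mouse 6 at 3 months had an Ighm share of the heavy chains of 24.0% (nearest 16.4%), and its leading segment Ighv8-8 held 34.99% of the Ighv FPKM (nearest 9.76%). Mouse 18 at 12 months had a leading Ighv share of 24.2% (nearest 15.8%) and only 49 Igkv genes above 0 (nearest 64). Mouse 35 at 24 months had a lambda share of 4.37% (nearest 1.72%).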

How the results depend on the processing

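At a pseudocount of 0.1, 1046, 923 and 323 genes were called for 24 against 3, 12 against 3 and 24 against 12 months, against 166, 158 and 55 at a pseudocount of 1, and 8 and 9 members in the comparisons with 3 months. As TPM the counts were 582, 476 and 191 genes and 7 and 7 members. TPM values are larger numbers than FPKM here, so that the same pseudocount weighs less. At an adjusted p under 0.05 they were 386, 79 and 1 genes and 1 and 0 members. Leaving out each mouse gave 163 to 190, 150 to 187 and 57 to 81 genes and 2 to 6, 3 to 6 and 0 to 1 members. With annotated rows only, the median Ighm share was 3.69%, 24.5% and 17.1%, the IgG share 34.4% at 12 and 42.3% at 24 months, and the Igkc share of light chains 89.7%, 60.5% and 77.7%, since most Igkc FPKM lay in assembled rows. Igkc with Igha (r = 0.25) and Cd79a with Ms4a1 (r = 0.48) lost their relation without 2 mice, and Igkc with Ms4a1 (r = 0.62) passed at a pseudocount of 0.1. The cause was not tested.

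Reversed signs occurred only between 12 and 24 months, where no member was called. As TPM, Igha stood at 0.025 and Jchain at 0.0085. Leaving out each mouse took Igha from -0.49 to 0.19, Jchain from -0.38 to 0.31, Ighg2b from -0.084 to 0.52, Cd79b from -0.23 to 0.031 and Ms4a1 from -0.17 to 0.028. All 10 members kept their direction in both comparisons with 3 months under every setting run. No paired analysis was possible because the replicate numbers are not shared between ages. Depth limits Ms4a1, Cd79a, Cd79b and Ighd most, and intervals for the FPKM of single mice could not be computed without counts.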
